A study of Rattus norvegicus with 85 samples.

Results

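A-to-I RNA editing was compared in the prefrontal cortex (PFC) of newborn F2 rats whose paternal grandmothers had, or had not, been stressed before reproduction. The samples were chosen by their labels alone (PFC, P0, F2, and either Control or PRS). After 1 control sample was set aside for low coverage, 13 of the 85 samples of the series remained, 6 O2-C and 7 O2-PRS. All were Sprague-Dawley rats sacrificed at birth (0 days of age), and the labels give no transgene or drug for these groups. PRS is pre-reproductive stress: adolescent females went through 7 days of unpredictable stress, were later mated with naive males, and their adult sons (O1-PRS) were mated with naive females to give the O2-PRS pups. O2-C pups came from grandmothers that were not stressed, through sons bred in the same way. The F2 animals were therefore never exposed to the procedure themselves, and the line ran through the father. The labels do not say which pups shared a litter or a sire, so each p-value below measures the spread between pups only.

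Editing was measured by mmPCR-seq, in which microfluidic multiplex PCR amplifies short stretches of cDNA around chosen sites, and the editing level is the percentage of reads at a site that carry G in place of A. A-to-I editing is the deamination of adenosine to inosine in double-stranded RNA by the ADAR enzymes, and inosine is read as guanosine by the ribosome and by reverse transcriptase. In brain it recodes receptors and channels. Htr2c, the serotonin 2C receptor, is edited at several neighbouring sites in the stretch that encodes an intracellular loop of the receptor, and its edited forms couple less well to G proteins than the unedited form. In cortex, editing of glutamate receptor subunits is known to rise with development, which makes newborn tissue a period of changing levels.

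The results below for Htr2c sites A to D come from 1 amplicon, separate from those of the Htr2c 3′UTR sites. The gene-specific parts of its primers are shown here because the 4 recoding sites A, B, C and D were read from the same molecules, together with the primers for the recoding sites of Gtf3c2 and Kcna1, to which several results below return. Lower case is used throughout, 5′ to 3′, without the common adaptor tails.
Htr2c A to D, forward: cttagtccgcgaattgaacc
Htr2c A to D, reverse: ggggattatgtctggccttta
Gtf3c2, forward: agggagacctgctactattga
Gtf3c2, reverse: aggctgagttgggaggat
Kcna1, forward: aattggacacaatgacaggtac
Kcna1, reverse: tcttcattggcgtcatactgt

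On the rn4 build the Htr2c coding sites lie on the minus strand of chromosome X, with site A at position 31041849, site B at 31041847, site C at 31041842 and site D at 31041837. The deposited annotation places all 4 in coding sequence. Editing at A changes isoleucine to valine. Editing at B, annotated alone, changes isoleucine to methionine. Site C changes asparagine to serine, and site D changes isoleucine to valine.

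The 146 listed sites are those analysed in the original study. Libraries held 911001 to 3274843 reads summed over these sites. No retained F2 PFC sample had more than 5.48% of these sites under the minimum of 50 reads. The sexes were not balanced. O2-C held 2 females and 4 males, and O2-PRS 5 females and 2 males. The library numbers followed sex exactly, with 154 to 187 in males and 245 to 285 in females, so sex and library set cannot be told apart. The study's methods speak of F2 males, but also say that data of both sexes of offspring were pooled. The labels give both sexes and were used. O2-C rat 131 was the single highest of the 13 rats at 23 and the single lowest at 20 of the 133 sites measured in every rat. O2-C rats 150 and 157 were the single lowest at 24 sites each, and O2-PRS rat 133 the single highest at 21. The Spearman correlation across sites with the median of the other rats was 0.786 for rat 131 and 0.825 for rat 150. For the other rats it ran from 0.948 to 0.982. The deposited tables hold no expression data, so the tissue label could not be checked against marker genes.

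Editing at Htr2c sites A and B was higher in O2-PRS than in O2-C. These were the 2 sites of 142 tested that passed the false discovery rate (FDR) of 0.1, a share of 1.41%, by the exact Mann-Whitney U test with Benjamini-Hochberg adjustment. Site A averaged 27.6% ± 16.0 (SD, n = 6) in O2-C and 61.0% ± 13.6 (SD, n = 7) in O2-PRS, a difference of 33.4 percentage points (adjusted exact p = 0.0466). Site B averaged 19.7% ± 12.02 (SD, n = 6) in O2-C and 51.1% ± 14.1 (SD, n = 7) in O2-PRS, a difference of 31.4 points (adjusted exact p = 0.0466).

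At site A the 6 O2-C rats had levels of 9.3% (rat 150), 12.5% (157), 19.4% (130), 35.5% (160), 41.3% (131) and 47.5% (154). The 7 O2-PRS rats had 49.4% (158), 50.3% (133), 53.9% (132), 55.6% (126), 56.7% (159), 78.7% (124) and 82.2% (129). Every O2-PRS rat thus lay above every O2-C rat, with a gap of 47.5% to 49.4% between the groups. Groups did not overlap at 2 of the 142 sites (1.41%), site A and the Htr2c 3′UTR site described below. With complete separation of 6 against 7 rats the unadjusted exact p was 0.00117, the smallest that this design can give without ties.

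At site B the O2-C rats had 7.8% (157), 9.3% (150), 15.0% (130), 19.3% (131), 27.6% (160) and 39.4% (154). The O2-PRS rats had 37.0% (158), 41.2% (133), 43.2% (132), 43.4% (126), 52.0% (159), 67.0% (129) and 73.8% (124). The groups overlapped by a single pair, O2-C rat 154 lying above O2-PRS rat 158. Rats 124 and 129 were the highest at both A and B.

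**Figure D1:**
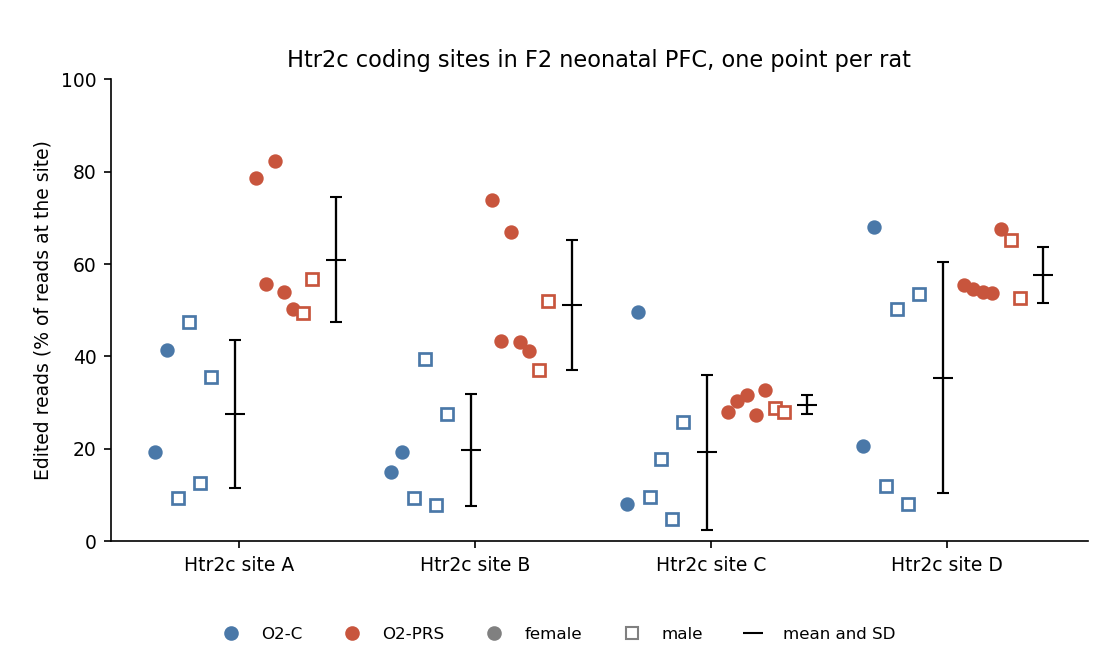
Editing level (percent of reads at the site) at Htr2c sites A, B, C and D in F2 neonatal PFC, with 1 point per rat, O2-C in blue and O2-PRS in red, filled circles for females, open squares for males, and mean and SD beside each group. At site A the 7 O2-PRS rats lie between 49.4% and 82.2% and the 6 O2-C rats between 9.3% and 47.5%, while at sites C and D 1 control, rat 131, lies above every O2-PRS rat.

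Sites C and D had higher means in O2-PRS, without passing the FDR. Site C averaged 19.2% ± 16.7 (SD, n = 6) in O2-C and 29.6% ± 2.08 (SD, n = 7) in O2-PRS, with an adjusted exact p of 0.307. The O2-C rats had 4.7% (157), 8.1% (130), 9.5% (150), 17.7% (154), 25.7% (160) and 49.6% (131), whereas the O2-PRS rats all fell between 27.3% and 32.8%. The single control above the O2-PRS range was rat 131.

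Site D averaged 35.4% ± 24.98 (SD, n = 6) in O2-C and 57.6% ± 6.07 (SD, n = 7) in O2-PRS, with an adjusted exact p of 0.366. The O2-C rats had 8.1% (157), 11.9% (150), 20.7% (130), 50.2% (154), 53.4% (160) and 68.0% (131), and the O2-PRS rats 52.6% to 67.5%. Controls 157, 150 and 130 were the lowest 3 rats at all of A, C and D, and at B as well. The control group was more spread than the O2-PRS group at C and D, and similarly spread at A and B.

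Counting error was small beside this spread. The 4 sites had 5547 to 31109 reads per rat, and the widest 95% Wilson interval of a single rat's level spanned 2.62 percentage points. These intervals cover counting error only, since PCR reads without molecular identifiers are not independent molecules.

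With both groups pooled, the sites moved in pairs across rats. The Spearman correlation between A and B was 0.978 and that between C and D 0.916 over the 13 rats, against 0.613 between A and C. Within O2-C it was 0.886 for A and B, 0.943 for C and D, and 0.771 for A and D. Within O2-PRS these values were 0.964, 0.577 and -0.5. By Pearson correlation, A and D in O2-C (0.925) were as close as A and B (0.893). These are descriptions of levels read from the same amplicon in the same libraries. Site A exceeded site B in 5 of 6 O2-C rats, with equal levels in rat 150, and in 7 of 7 O2-PRS rats, and the gap between them averaged 7.85 points ± 7.53 (SD) in O2-C and 9.89 ± 3.94 in O2-PRS (exact permutation test of means, two-sided, p = 0.555). Site D exceeded site C in all 13 rats, by 16.2 points ± 12.4 in O2-C and 28.0 ± 5.37 in O2-PRS (exact permutation p = 0.0449, Benjamini-Hochberg adjusted 0.135 with 3 gaps examined). Within O2-PRS, where C stayed within a narrow range, A and C had a Spearman correlation of -0.0541.

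The calls at A and B rested on few rats. With labels permuted only within sex, and so within library set, the unadjusted exact p was 0.00317 at A, the smallest that the 315 splits can give, and 0.00635 at B, and the adjusted p was 0.127 at both. Among females the difference at A was 33.8 points (2 O2-C against 5 O2-PRS) and among males 26.9 points (4 against 2), and at B it was 36.6 and 23.5 points. The direction at A and B was therefore the same in both sexes, but neither sex held enough rats for its own test, the smallest possible exact p being 0.0952 in females and 0.133 in males. Leaving out O2-C rat 150, 157 or 160 moved the adjusted p at both sites to 0.101, while without O2-C rat 131 sites C and D passed the FDR along with A and B (differences of 16.4 and 28.7 points at C and D, adjusted exact p = 0.0505).

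The control set aside for low coverage had 35.6% at A, 25.4% at B, 25.1% at C and 49.8% at D. With it kept (7 against 7), the difference at A was 32.2 points and the adjusted exact p 0.0233.

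The tissue was taken as punches 0.5 mm across from newborn brain. The original study describes choroid plexus as a tissue rich in Htr2c transcript and little edited at A and B. Its admixture was examined there by PCR for the marker F5 in F1 PFC samples, and those measurements were not used here. The share of reads that fell on the Htr2c coding amplicon, taken at site A, was 4700 to 8393 RPM in O2-C and 5562 to 9461 RPM in O2-PRS, where RPM is reads at the site per 1000000 reads over the listed sites. On the log2 scale the O2-PRS mean was higher by 0.22 (exact permutation p = 0.192). This difference was 0.34 without O2-C rat 130 (exact permutation p = 0.00884), 0.13 without O2-PRS rat 133 (p = 0.359) and 0.07 with the set-aside control kept (p = 0.734). Among controls, the rats lowest at A, 150, 157 and 130, had 5038, 4700 and 8393 RPM, and rats 160, 131 and 154 had 5282, 5151 and 5460. Amplicon reads after multiplex PCR are not a measure of expression, and the part of tissue make-up in the result was not tested. Over all 146 sites, 0 passed the FDR for read share (0%) by the same permutation test, and 29 (19.9%) had an unadjusted exact p under 0.05.

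Htr2c is also edited in its 3′UTR, the untranslated part downstream of the coding sequence. At the site at chromosome X position 31014486 (3′UTR site 1) editing averaged 4.02% ± 2.46 (SD, n = 6) in O2-C and 8.83% ± 1.36 (SD, n = 7) in O2-PRS. The O2-C rats had 0.1% (131), 2.6% (157), 3.5% (130), 5.1% (154), 6.1% (160) and 6.7% (150). The O2-PRS rats had 6.9% (132), 7.2% (129), 8.6% (126), 9.4% (124 and 158), 9.6% (159) and 10.7% (133). The groups did not overlap, with the gap a narrow one of 6.7% to 6.9%. The adjusted exact p was 0.119, since the adjustment ran over the 102 tested sites outside the amino-acid changing class. With all 142 sites adjusted together it was 0.0828, which passes the FDR, while Htr2c B no longer did (0.110), so that the 2 sites called were then A and this one (exact Mann-Whitney U test). The set-aside control had 7.0%, inside the O2-PRS range. Read share at this site was alike in both groups, with a log2 difference of -0.0019 (exact permutation p = 0.994). The order of rats differed from that at A: O2-PRS rats 129 and 124 led at A, and rat 133 led here. Within groups the Spearman correlation of this site with A was -0.314 in O2-C and -0.2703 in O2-PRS. The other 3′UTR site, at position 31014416, was low in both groups (0.50% ± 0.179 and 0.54% ± 0.172, SD).

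Across all sites the differences were mostly small and mostly upward. Of the 142 sites, 107 (75.4%) had a higher mean in O2-PRS, and the median difference was 0.0952 points. An unadjusted exact p under 0.05 was found at 23 sites (16.2%), with 21 (14.8%) higher and 2 (1.41%) lower in O2-PRS. Of these 23 differences, 14 were smaller than 1 percentage point. With labels permuted within sex 20 sites had such a p, 16 of them shared with the 23, and 22 of the 23 had the same direction in females and males, Arhgdia being the exception. Beyond A and B none passed the FDR.

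**Figure D2:**
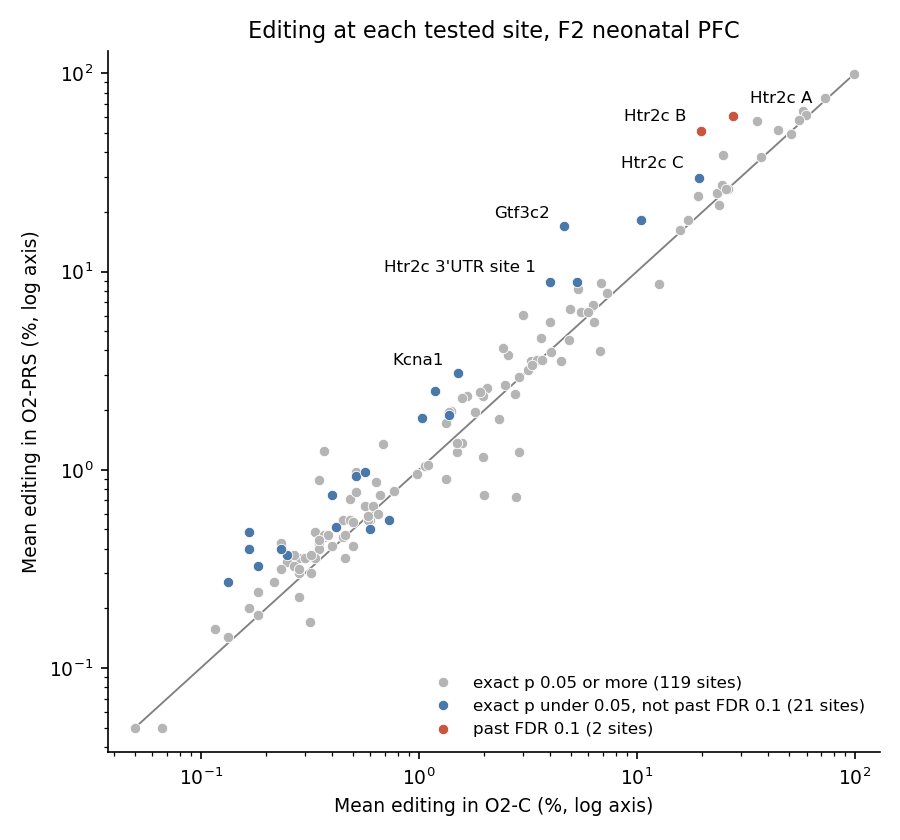
Mean editing in O2-PRS against mean editing in O2-C (percent, both axes logarithmic) for the 142 sites tested, with the line of equal levels. The 2 sites past the FDR, Htr2c A and B, lie far above the line, 21 further sites had an exact p under 0.05, and means under 0.05% are drawn at 0.05%.

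By genomic class, the mean was higher in O2-PRS at 30 of 40 tested amino-acid changing sites (median difference 0.174 points), 14 of 16 synonymous sites (0.106), 50 of 71 3′UTR sites (0.0619), 6 of 6 5′UTR sites (3.901), 6 of 7 intergenic sites (0.390) and 1 of 2 intronic sites (1.49). Unadjusted exact p-values under 0.05 were found at 6, 4, 10, 2, 1 and 0 of them. Of the 6 5′UTR sites, 4 are neighbouring positions in Adarb1 (median difference 7.52 points). The other 2 are in Pa2g4 (differences of 0.0881 and 0.0976 points), so the class median mostly describes 1 gene. The 4 listed sites left untested were those where fewer than 3 O2-C rats reached 50 reads, namely Mcrs1, 2 sites of Psma3 and Slco2a1.

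Averaged over the 133 sites with enough reads in all 13 rats, editing was 7.42% ± 0.684 (SD, n = 6) in O2-C and 8.83% ± 0.718 (SD, n = 7) in O2-PRS (exact permutation test of means, two-sided, p = 0.00816, and p = 0.0159 with labels permuted within sex). Rats ranged from 6.50% to 8.20% in O2-C and from 7.79% to 9.69% in O2-PRS, so the groups overlapped. Without the 6 Htr2c sites the means were 6.93% ± 0.256 and 7.61% ± 0.8003, and the exact permutation p was 0.0763. O2-PRS rat 126 then lay below 5 of the 6 controls at 6.63% and O2-PRS rat 129 below all 6 at 6.38%, and the other 5 O2-PRS rats lay above every control.

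**Figure D3:**
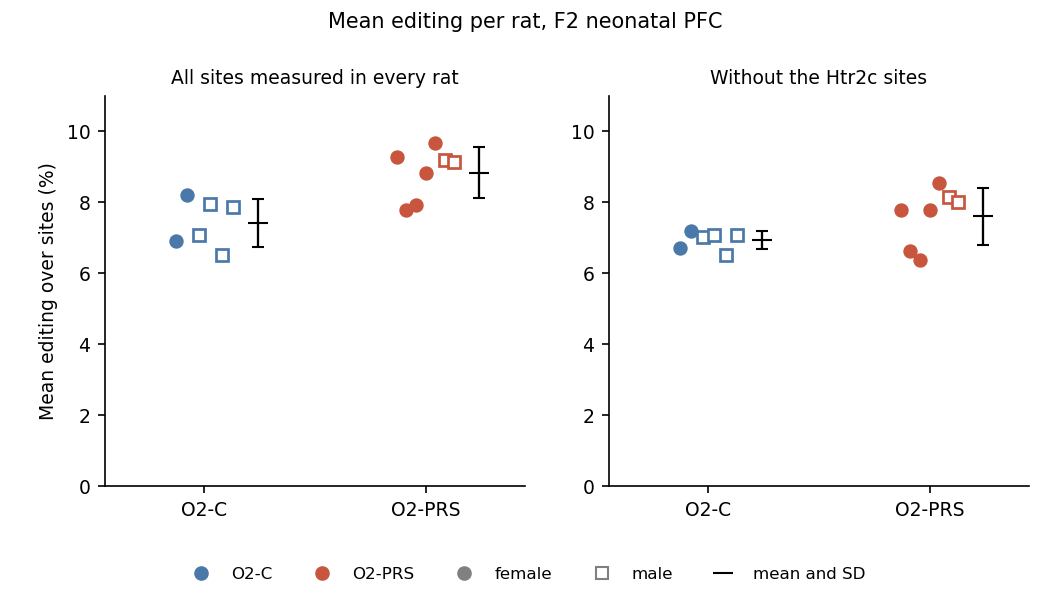
Mean editing per rat in F2 neonatal PFC (percent), with O2-C in blue and O2-PRS in red, filled circles for females, open squares for males, and mean and SD beside each group. Over the 133 sites measured in every rat the group means are 7.42% and 8.83%, and without the Htr2c sites they are 6.93% and 7.61%.

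Adarb1 encodes ADAR2, an editing enzyme that also edits its own transcript. Its 4 sites, on the plus strand of chromosome 20 and annotated as 5′UTR, had higher means in O2-PRS, and none passed the FDR. At position 11709472 editing averaged 24.97% ± 3.87 (SD, n = 6) in O2-C and 38.9% ± 11.0 (SD, n = 7) in O2-PRS (unadjusted exact p = 0.0513, adjusted 0.267). The O2-C rats lay between 20.1% and 29.8%. The O2-PRS rats had 22.2% (129), 28.5% (126), 37.6% (132), 39.3% (159), 41.8% (133), 49.4% (158) and 53.6% (124), so that 5 of 7 exceeded every control and rats 126 and 129 did not.

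At position 11709485 the means were 10.5% ± 3.61 and 18.3% ± 6.42 (unadjusted exact p = 0.0221, adjusted 0.226). The O2-C rats had 4.8% (131), 9.3% (130), 10.5% (157), 10.9% (150), 11.4% (154) and 16.0% (160), and the O2-PRS rats 11.3% to 27.2%. The highest 3 were O2-PRS rats 124, 158 and 159, with 27.2%, 25.6% and 21.6%. These positions had lower p-values when labels were permuted within sex, 0.00952 at 11709472 and 0.00317 at 11709485, with adjusted p-values of 0.194 and 0.162.

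At position 11709486, next to it, the means were 57.7% ± 4.96 and 64.9% ± 5.76 (unadjusted exact p = 0.0513). Here the difference was 15.6 points among males and -0.57 points among females. The position 11709490 was edited at 1.38% ± 0.655 and 1.96% ± 1.16 (unadjusted exact p = 0.277).

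**Figure D4:**
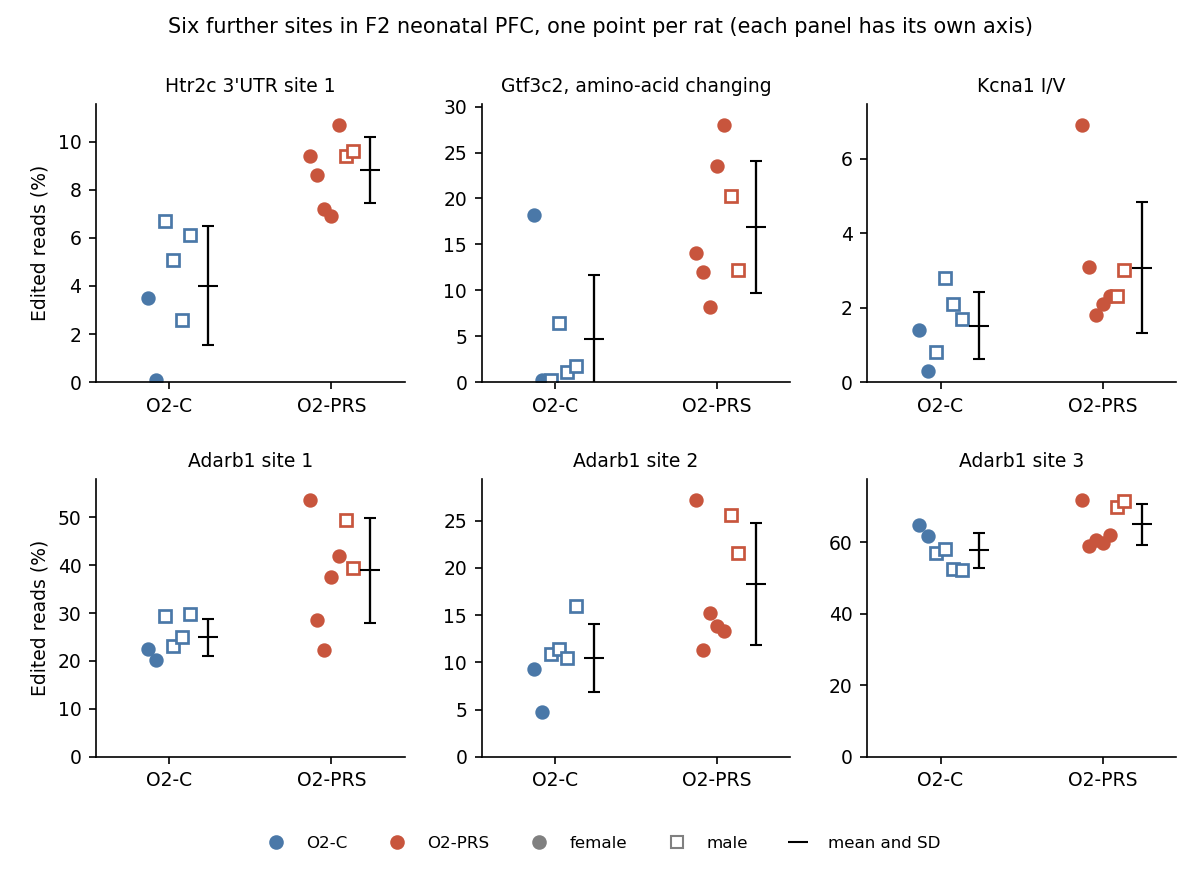
Editing level (percent of reads) at 6 further sites in F2 neonatal PFC, with 1 point per rat, O2-C in blue and O2-PRS in red, filled circles for females, open squares for males, mean and SD beside each group, and a separate axis in each panel (SD bars end at 0). Adarb1 sites 1, 2 and 3 are positions 11709472, 11709485 and 11709486, and only the Htr2c 3′UTR site separates the groups fully among these 6.

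Gtf3c2 encodes a subunit of the transcription factor TFIIIC, which recruits RNA polymerase III. Its recoding site (chromosome 6, position 25180878, threonine to alanine), named here after its values were seen, averaged 4.65% ± 7.03 (SD, n = 6) in O2-C and 16.9% ± 7.16 (SD, n = 7) in O2-PRS (unadjusted exact p = 0.0140, adjusted 0.1399). The O2-C rats had 0.2% (131 and 150), 1.1% (157), 1.8% (160), 6.4% (154) and 18.2% (130), and the O2-PRS rats 8.2% (129), 12% (126), 12.2% (159), 14.1% (124), 20.3% (158), 23.5% (132) and 28.0% (133). Control 130 alone lay within the O2-PRS range. It passed the FDR when levels were tested on the logit scale (adjusted exact permutation p = 0.0777) and when the set-aside control was kept (adjusted exact p = 0.0874).

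Kcna1, the voltage-gated potassium channel Kv1.1, is recoded from isoleucine to valine in its pore, a change known to speed recovery from inactivation. Its site (chromosome 4, position 163012291) was edited at 1.52% ± 0.898 (SD, n = 6) in O2-C and 3.07% ± 1.75 (SD, n = 7) in O2-PRS (unadjusted exact p = 0.0251, adjusted 0.2005). The O2-C rats had 0.3% (131) to 2.8% (154). Of the O2-PRS rats, 124 had 6.9% and the other 6 had 1.8% to 3.1%. Without rat 124 the difference was 0.92 points, against 1.55 with it.

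Of the 29 sites that the study lists as learning- and stress-related, all of which were tested, 2 passed the FDR, Htr2c A and B, beside 1.41% of all tested sites. The study assembled the list from the literature, for neurotransmission and the stress response. An unadjusted exact p under 0.05 was found at 6 of the 29, against 23 of 142 over all sites, and the mean was higher in O2-PRS at 23 of 29 (107 of 142 over all sites). The 6 were Htr2c A, B and C, Kcna1 and synonymous sites of Gria3 and Grik2. The median difference was 0.571 points, and 0.521 points over the 25 listed sites outside Htr2c.

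The recoding sites of the glutamate receptors, which set calcium permeability and desensitisation, did not pass the FDR. The Q/R site of Gria2, which makes AMPA receptors impermeable to calcium, was edited at 99.5% ± 0.133 in O2-C and 99.5% ± 0.215 in O2-PRS (range over all 13 rats, 99.2% to 99.8%). The R/G sites, which speed recovery from desensitisation, averaged 37.2% and 37.7% in Gria2 (ranges 32.6% to 46.0% and 26.0% to 50.1%), 55.4% and 58.5% in Gria3 (49.6% to 64.6% and 47.6% to 69.0%), and 26.2% and 26.1% in Gria4 (20.4% to 32.4% and 18.5% to 34.5%), O2-C before O2-PRS. At each R/G site the O2-PRS rats spanned a wider range than the controls on both sides. Of the 10 AMPA receptor sites tested, 9 had a higher mean in O2-PRS, with a median difference of 0.0738 points, and a synonymous site of Gria3 alone had an unadjusted exact p under 0.05 (0.57% ± 0.186 and 0.97% ± 0.269, p = 0.0221).

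Among the kainate receptor subunits, the Q/R site of Grik1 averaged 24.6% ± 8.45 in O2-C and 27.4% ± 9.35 in O2-PRS. In Grik2 the Q/R site averaged 72.6% ± 3.97 and 74.7% ± 5.499, the Y/C site 59.4% ± 3.34 and 61.7% ± 4.73, and the I/V site 44.2% ± 6.69 and 51.7% ± 13.3. The I/V levels of the O2-PRS rats fell apart, with 32.5% (126), 36.9% (129) and 45.2% (124) inside the control range of 31.8% to 49.8% and 57.5% (132), 62.0% (159), 62.6% (158) and 65.1% (133) above it. Of the 7 kainate receptor sites, 6 had a higher mean in O2-PRS, with a median difference of 2.05 points. The exception, a synonymous site of Grik2, was 1 of the 2 sites lower in O2-PRS at an unadjusted exact p under 0.05 (0.60% ± 0.0632 and 0.50% ± 0.0577, p = 0.0216), and the other was the Ddx19b site (0.73% ± 0.137 and 0.56% ± 0.162, p = 0.0251).

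The recoding sites of Gabra3, Flna, Kcnma1, Cadps, Azin1 and Cacna1d had no unadjusted exact p under 0.05. Gabra3, a GABA-A receptor subunit, was edited at 51.0% ± 1.82 in O2-C and 49.3% ± 2.89 in O2-PRS (unadjusted exact p = 0.295). Flna, filamin A, which crosslinks actin, was edited at 5.40% ± 3.35 and 8.19% ± 3.84 (unadjusted exact p = 0.0781). The potassium channel Kcnma1 was edited at 1.82% ± 0.691 and 1.96% ± 0.294, the secretion factor Cadps at 17.2% ± 2.60 and 18.2% ± 2.75, and Azin1, the antizyme inhibitor, at 0.33% ± 0.163 and 0.49% ± 0.0690. The 3 sites of the calcium channel Cacna1d averaged 2.77% to 23.7% in O2-C and 2.4% to 21.8% in O2-PRS, with unadjusted exact p-values of 0.504 or more.

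All 3 recoding sites of Blcap had the higher mean in O2-C, none with an unadjusted exact p under 0.05. At the tyrosine-to-cysteine site the O2-C mean was 12.7% ± 12.9 and the O2-PRS mean 8.63% ± 2.40 (unadjusted exact p = 0.597). Control 131 had 36.7% there, and the other controls 1.9% to 15.0%. At the lysine-to-arginine site (position 148267329) control 131 had 6.7% and the other controls 0.3% to 2.1%. The higher O2-C means at these sites therefore leaned on 1 rat. The share of reads at the 3 Blcap sites was higher in O2-PRS by 2.13 to 2.32 on the log2 scale (unadjusted exact permutation p = 0.00408 to 0.00699, adjusted 0.136).

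The RNA-binding protein Nova1 had 4 sites, all under 1% in the O2-PRS means. At position 66199286 the O2-C mean was the higher one (difference -2.05 points), with O2-C rat 157 at 12.4%. The other controls with enough reads there had 0% to 1%. The lysine-to-glutamate site of Nova1 (position 66199121) averaged 0.25% ± 0.0837 and 0.37% ± 0.0488 (unadjusted exact p = 0.0122, adjusted 0.1399), a difference close to the step of 0.1 points to which levels were rounded. With levels taken from the read counts in place of the rounded values, 19 sites had an unadjusted exact p under 0.05, 18 of them among the 23.

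Ankrd28 and Son, genes with many sites, gave no call. None of the 20 Ankrd28 sites, all in the 3′UTR, had an unadjusted exact p under 0.05 (smallest p = 0.0647), and 13 had the higher mean in O2-PRS. Of 8 sites in Son, a splicing cofactor, 6 had the higher mean in O2-PRS, and a synonymous site had 0.17% ± 0.137 and 0.49% ± 0.285 (unadjusted exact p = 0.0216).

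The remaining sites with an unadjusted exact p under 0.05 are named here after their values were seen. The largest difference among them was in Dagla, which makes the endocannabinoid 2-arachidonoylglycerol, with 5.32% ± 2.01 in O2-C and 8.81% ± 2.76 in O2-PRS (exact p = 0.0350). Usp29 followed with 1.18% ± 1.151 and 2.50% ± 0.891 (exact p = 0.0390), on as few as 138 reads in a rat, and Arhgdia with 1.03% ± 0.769 and 1.83% ± 0.658 (exact p = 0.0460). The others, 2 sites of Mmgt1 and single sites of Atxn10, Celf4, Isoc1, Hist2h2ab, Pa2g4 and an intergenic region, differed by 0.0976 to 0.502 points.

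The same contrast was next set beside that in F1 PFC, in newborn offspring of the stressed females themselves (5 O1-C and 6 O1-PRS rats), which asks whether the change runs the same way in both generations. The comparisons shared no samples. The sexes were unbalanced here too, with 1 female and 4 males in O1-C and 3 females and 3 males in O1-PRS, and library numbers again followed sex (15 to 46 in females, 196 to 235 in males). At Htr2c A the F1 means were 63.6% ± 20.1 (SD, n = 5) in O1-C and 27.8% ± 24.2 (SD, n = 6) in O1-PRS, with ranges of 34.7% to 84.0% and 4.9% to 64.1%. At B they were 56.8% ± 21.8 and 21.4% ± 19.7. The PRS line thus had the lower mean in F1 and the higher mean in F2, although in F1 none of the 146 sites passed the FDR (0%), 10 having an unadjusted exact p under 0.05, A and B among them (0.0303 each, and 0.0357 with labels permuted within sex). At A the 3 O1-PRS females averaged 13.6% and the single O1-C female had 34.7%, and the males averaged 42.1% (3 O1-PRS) and 70.9% (4 O1-C). O1-PRS females 36 and 37 had the fewest reads over the listed sites, 149278 and 204588, with 344 and 687 at A. Rat 36 had 15.8% of the listed sites under 50 reads. O2-PRS rats had a mean at A close to that of O1-C rats (61.0% and 63.6%), and O2-C rats one close to that of O1-PRS rats (27.6% and 27.8%).

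The difference between the effects was tested by permuting treatment labels within each generation. This null has no effect in either generation. The FDR was passed by 4 of 142 sites (2.82%), and 21 (14.8%) had an unadjusted p under 0.05. At A the F2 effect minus the F1 effect was 69.2 points (exact permutation p = 0.000396, adjusted 0.0273) and at B 66.8 points (p = 0.000178, adjusted 0.0253). At C and D it was 19.4 and 35.9 points (exact permutation p = 0.0737 and 0.0617). The other 2 sites were Adarb1 11709472, where the means were 34.7% and 27.4% in F1 (difference of effects 21.3 points, adjusted exact permutation p = 0.0273), and Gtf3c2 25180878, with 12.3% and 6.97% in F1 (17.6 points, adjusted exact permutation p = 0.0273). With labels permuted within sex in both generations, A, B and Adarb1 11709472 passed the FDR (adjusted exact permutation p = 0.0182 each) and Gtf3c2 25180878 did not (0.133). Htr2c 3′UTR site 1 was not among the 4, its PRS mean being the higher in F1 too (7.70% and 10.5%).

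**Figure D5:**
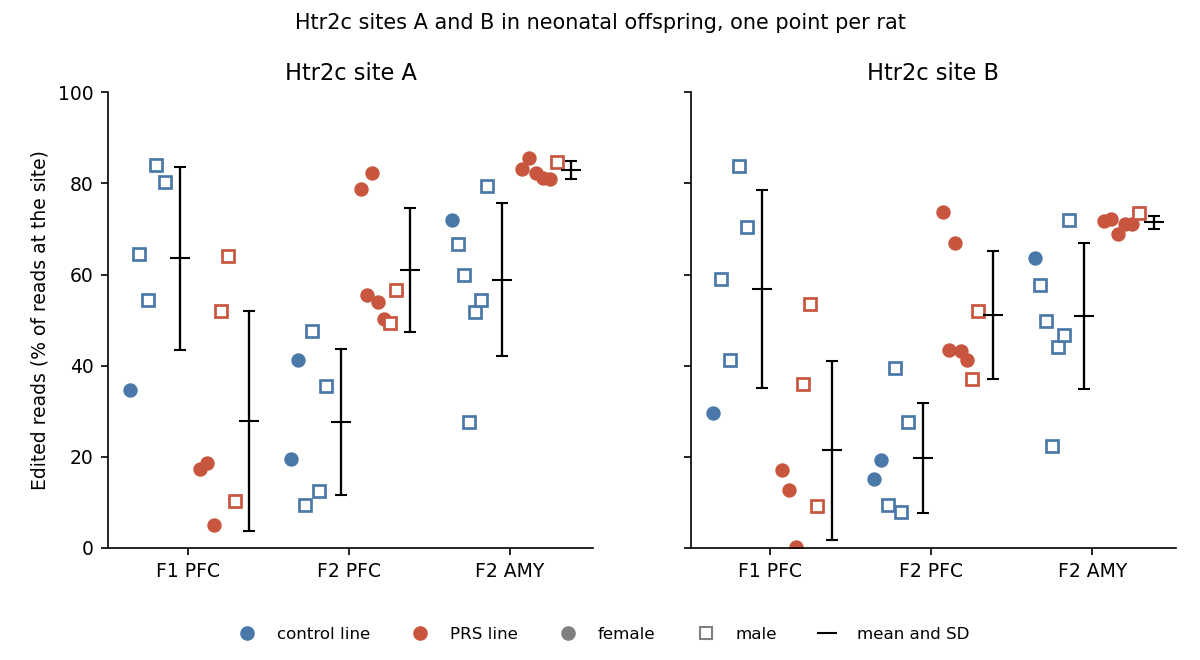
Editing level (percent of reads) at Htr2c sites A and B in F1 PFC, F2 PFC and F2 AMY of newborn rats, with 1 point per rat, control line in blue and PRS line in red, filled circles for females, open squares for males, and mean and SD beside each group. In F1 PFC the PRS line has the lower mean (27.8% against 63.6% at A), and in F2 PFC and F2 AMY the higher one (61.0% against 27.6%, and 83.0% against 58.9%).

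In the amygdala (AMY) of F2 newborns (7 O2-C, 1 female and 6 males, and 6 O2-PRS, 5 females and 1 male), the Htr2c means were also higher in O2-PRS. At A the means were 58.9% ± 16.8 (SD, n = 7) and 83.0% ± 1.91 (SD, n = 6), at B 50.9% ± 16.0 and 71.5% ± 1.5, at C 22.9% ± 7.59 and 31.1% ± 2.81, and at D 39.7% ± 9.01 and 55.9% ± 3.83. In AMY 3 of 146 sites (2.05%) passed the FDR, Htr2c A, Htr2c D and Kcna1 (adjusted exact p = 0.0159 each). Treatment nearly coincided with sex in AMY. With labels permuted within sex 0 sites passed the FDR, 6 having an unadjusted exact p under 0.05, and at these 3 sites the p was 0.0238, the smallest that the 42 splits can give. The difference at A was 10.6 points among females, with 1 control, and 28.1 points among males, with 1 O2-PRS rat. Library numbers did not follow sex here. That O2-PRS male, rat 146, had library number 169 and 84.8% at A. Control male 145, with library number 161, had 79.4%. The other control males, numbered 255 to 287, had 27.6% to 66.7%. The control female, numbered 268, had 72%, and O2-PRS females numbered 244 to 275 had 80.9% to 85.6%. O2-PRS levels at A were more alike in AMY (80.9% to 85.6%) than in PFC (49.4% to 82.2%). The labels do not say whether the PFC and AMY samples came from the same rats or litters. The comparison of effects that follows permuted labels in each region separately, and so treated the samples as separate rats.

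No site passed the FDR for a difference between the PFC and AMY effects (0 of 142, 0%), and 6 (4.23%) had an unadjusted exact permutation p under 0.05. At A the PFC effect was larger by 9.25 points (exact permutation p = 0.57), at B by 10.8 points (p = 0.462), at C by 2.14 points (p = 0.795) and at D by 6.04 points (p = 0.649), again by exact permutation. With labels permuted within sex in both regions no site passed either (exact permutation p = 0.198 at A). These p-values do not show that the effects were equal. Htr2c 3′UTR site 1 was among the 6, with an effect of 4.81 points in PFC and 1.11 points in AMY (exact permutation p = 0.0477, adjusted 0.724). At Kcna1 the effect was 1.55 points in PFC and 2.70 points in AMY (exact permutation p = 0.451).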

How the data were processed

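Editing was measured by mmPCR-seq in cDNA from 13 F2 neonatal PFC samples, set beside 11 F1 PFC and 13 F2 AMY samples. According to the study's methods, 48 primer pools were amplified on a microfluidic array, sequenced as 76 bp paired-end reads and mapped to rn4 with BWA, allowing 9 mismatches; the submitters' processing notes name BWA and SAMtools without versions. The deposited tables give, per site, counts of reads and of edited reads, and the editing level, which the authors deposited as a fraction (edited reads over reads, 3 decimals). It was multiplied by 100 here. Of the 179 sites in each table, the 146 of the study's list were used, matched by position.

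Levels under 50 reads were dropped, as were sites with fewer than 3 samples in a group, and 1 O2-C sample with over 30% of sites missing. Levels were compared between groups through exact Mann-Whitney U tests (two-sided, all 1716 splits of the rats), adjusted by Benjamini-Hochberg separately for amino-acid changing and other sites at FDR 0.1. Means over sites and read shares (log2 of RPM + 1) used exact permutation of means. Differences between effects were adjusted over all sites. No further normalization was applied. With 50 reads, the 95% Wilson interval of a 50% level is 36.6% to 63.4%, and 0 edited reads allow up to 6% (3 reads).

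The sites described always were the Htr2c sites, the glutamate receptor, Gabra3, Kcna1, Kcnma1, Cacna1d, Flna, Cadps, Azin1, Blcap and Nova1 sites, and any past the FDR (1 item of this rule is not reported here); other sites were named after their values were seen; the site groups were genomic class, gene families and the study's 29 learning- and stress-related sites. The members and lists were chosen with earlier results of these data known. Scripts in Python 3.11.15 with numpy 2.4.6, pandas 2.3.3 and scipy 1.17.1 were tested on simulated data. Alternatives were the low-coverage sample kept, a minimum of 200 reads or none, and each F2 PFC rat left out. Others were labels permuted within sex, each sex alone, tests of means and of logit levels, a joint adjustment, FDR 0.05, and narrower site sets. Added after the data were seen were levels from read counts, mean editing without Htr2c, and rats 131 and 129 both left out. Within-sex permutation in F1 PFC and F2 AMY was also added then.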

Additional observations from a re-analysis of the deposited data

Results flagged for a closer look

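At 4 sites the stress effect differed between F2 PFC and F1 PFC in the test of the difference itself, at FDR 0.1. With labels permuted within sex, Gtf3c2 25180878 no longer passed (adjusted exact permutation p = 0.133). The F2 effect exceeded the F1 effect by 69.2 points at Htr2c A, 66.8 points at Htr2c B, 21.3 points at Adarb1 11709472 and 17.6 points at Gtf3c2 25180878.

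Single rats were marked as outlying at 9 places, out of 98 sets of group values examined at the named sites. The rule was Dixon's ratio, the gap to the nearest rat over the range of the group. Its chance rate of about 1 group in 20 holds for independent, normally distributed values. Levels here were rounded, many were low, and sets shared rats and amplicons, so the 9 places cannot be compared with that rate. At Isoc1 and Ddx19b the marked rat stood only a few rounding steps above the next. Among O2-C rats, 131 had 6.7% at Blcap 148267329 (others 0.3% to 2.1%) and 2.5% at Arhgdia (others 0.3% to 1.1%). O2-C rat 157 had 12.4% at Nova1 66199286 (others 0.0% to 1.0%), and O2-C rat 130 had 18.2% at Gtf3c2 25180878 (others 0.2% to 6.4%). Among O2-PRS rats, 124 had 6.9% at Kcna1 (others 1.8% to 3.1%), 129 had 2.6% at Nova1 66199286 (others 0.2% to 0.8%), and 133 had 0.9% at Ddx19b (others 0.4% to 0.6%). O2-PRS rat 159 had 0.6% at Isoc1 (others 0.3% to 0.4%) and 3.1% at Mmgt1 141126031 (others 1.6% to 1.9%).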

How the results depend on the processing

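No paired analysis was possible, because each sample has its own number and the labels do not link samples from the same rat. The direction at Htr2c A, B, C and D was the same under every alternative run, and the call at A and B was kept with the low-coverage control included, with a minimum of 200 reads or none, with tests of means and with levels from read counts. The count of 2 sites past the FDR became 4 with the low-coverage control kept (adding Nova1 66199121 and Gtf3c2 25180878), 5 on the logit scale (these and Htr2c 3′UTR site 1), and 4 without rats 131 and 129 (adding Htr2c C and D). It was 0 with labels permuted within sex (20 sites with an unadjusted exact p under 0.05), 0 in females and 0 in males, where so few rats cannot pass. Leaving out 1 rat gave 0 to 4, with 0 without O2-C rat 150, 157 or 160 and 4 without O2-C rat 131. With a joint adjustment the count stayed at 2, with Htr2c 3′UTR site 1 in place of Htr2c B. The 2 learning- and stress-related sites became 0 within sex, 0 in females, 0 in males, 1 with a joint adjustment and 4 without rats 131 and 129, and 0 to 4 with 1 rat left out. The 23 sites with an unadjusted exact p under 0.05 became 5 in females, 0 in males and 11 among sites of at least 1%, and 15 (without O2-PRS rat 133) to 24 (without O2-C rat 130) with 1 rat left out. At Htr2c A the difference lost its call at 33.4 points within sex, 33.8 in females and 26.9 in males, and ran from 29.7 to 37.4 points with 1 rat left out. At B it lost its call at 31.4 points within sex and with a joint adjustment (adjusted exact p = 0.110), 36.6 in females and 23.5 in males, and ran from 27.6 to 35.3. Site C gained a call at 16.1 points and D at 29.3 without rats 131 and 129, and they ran from 7.45 to 16.4 and from 16.7 to 28.7. Mean editing differed by 1.11 points in females (exact permutation p = 0.238), 1.73 in males (0.0667) and 0.676 without the Htr2c sites (0.0763), and by 1.23 to 1.59 with 1 rat left out. The 4 sites whose effect differed from that in F1 PFC were 4 to 8 with 1 F2 PFC rat left out. There were 7 without O2-C rat 154 and 8 without O2-PRS rat 129. Rats of F1 PFC and F2 AMY were not left out in turn. No alternative gave a site whose effect differed from that in F2 AMY. Of the 4 that differed from F1 PFC, Gtf3c2 25180878 no longer passed with labels permuted within sex. Within F2 AMY itself the 3 sites past the FDR became 0 with labels permuted within sex. All 3 then had the smallest exact p that the 42 splits can give, 0.0238 (adjusted 0.244). So few splits leave little room to pass the FDR. The log2 read share at Htr2c A differed by 0.13 to 0.34, the latter without O2-C rat 130 (exact permutation p = 0.00884). The 1 reversed value was Arhgdia in females, -0.18 points. Of 528 values at single sites, 395 stayed on their side of the threshold with the same direction and 132 lost their unadjusted p under 0.05. The causes of these shifts were not tested.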

Other observations

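Of the 33 positions in the tables outside the list, 6 had 50 or more reads in any F2 PFC sample. Of these, 2 had them in every sample, both in Htr2c, and both were listed at a level of 0 throughout. The highest level at any of the 6 was 1.1%.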
